A study of Mus musculus with 3 samples.

Results

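The Slc4 genes encode the bicarbonate transporters of the solute carrier family 4. This account covers the 10 mouse members Slc4a1, Slc4a2, Slc4a3, Slc4a4, Slc4a5, Slc4a7, Slc4a8, Slc4a9, Slc4a10 and Slc4a11 in the choroid plexus epithelium (CPE). Members were found by the gene name that the array design gives each probe, without regard to any measured value. This rule found 17 probes for 9 of the 10 members among 41174 probes, of which those with a current symbol represent 19694 genes. Slc4a5 had no probe under its own name. A further 3 probes were therefore shown beside the 17 and counted apart from them. For 2 of them the design gives C330016K18Rik, a former symbol of Slc4a5, and for the third it describes a transcript of Slc4a7. Probes of a gene were numbered from its 5′ end.

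CPE cells were cut by laser dissection from brain cryosections of 3 healthy adult C57BL/6 mice, untreated and without any transgene. Amplified RNA of each mouse was labelled with Cy5 and hybridised to its own dual-colour 44K Agilent array. The other channel of every array held the same Cy3-labelled reference RNA, made from C57BL/6 choroid together with the RPE, the pigmented epithelium behind the retina. The design thus allowed a description of the level of each gene in CPE and a comparison of CPE with the RPE/choroid reference within each array. The dyes were not swapped, so a dye effect and a tissue difference cannot be told apart. The reference was a single RNA, so differences between animals enter on the CPE side only. The spread of the ratios also holds the technical spread of both channels. For probes above background in both channels, the median SD over the 3 arrays was 0.31 for reference log2 levels. For CPE log2 levels it was 0.34.

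Slc4 proteins move bicarbonate across the plasma membrane. Some exchange it for chloride, some carry it together with sodium, and sodium-coupled members can be electrogenic or electroneutral. The choroid plexus secretes the cerebrospinal fluid, and transport of sodium, chloride and bicarbonate from blood to ventricle drives this secretion. In choroid plexus, the chloride-bicarbonate exchanger Slc4a2 (AE2) and the sodium-dependent transporter Slc4a10 (NCBE or NBCn2) are known from the basolateral membrane, and the electrogenic cotransporter Slc4a5 (NBCe2) from the ventricular membrane.

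The promoter regions of the 4 genes that differed between CPE and reference, and of Slc4a5, are shown because these 5 members carry most of the results below. RefSeq promoter windows on GRCm38.p6 were matched by symbol for 7 of the 10 members. Each sequence is the 250 bases before the most upstream RefSeq start on the plus strand, 5′ to 3′. Capitals mark a match, on either strand, to any of 5 short motifs. These were the OTX motif, spelled TAATCC, and the GC box, spelled GGGCGG. A further motif was the CCAAT box, which is named by its letters. The TATA box was spelled TATAAA, and the core of the cAMP response element was searched as TGACG. No motif overlapped another in these windows.
Slc4a2 (chr5:24424982-24425231): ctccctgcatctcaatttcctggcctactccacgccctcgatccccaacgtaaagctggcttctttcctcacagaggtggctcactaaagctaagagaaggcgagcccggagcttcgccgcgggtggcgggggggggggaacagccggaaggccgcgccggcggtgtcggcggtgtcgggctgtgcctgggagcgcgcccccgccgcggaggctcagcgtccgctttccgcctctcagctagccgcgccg
Slc4a10 (chr2:62046265-62046514): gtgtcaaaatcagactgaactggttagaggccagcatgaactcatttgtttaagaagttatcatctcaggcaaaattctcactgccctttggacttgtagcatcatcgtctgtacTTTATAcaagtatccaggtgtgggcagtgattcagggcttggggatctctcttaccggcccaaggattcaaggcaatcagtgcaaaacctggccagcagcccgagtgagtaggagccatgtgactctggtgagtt
Slc4a5 (chr6:83237125-83237374): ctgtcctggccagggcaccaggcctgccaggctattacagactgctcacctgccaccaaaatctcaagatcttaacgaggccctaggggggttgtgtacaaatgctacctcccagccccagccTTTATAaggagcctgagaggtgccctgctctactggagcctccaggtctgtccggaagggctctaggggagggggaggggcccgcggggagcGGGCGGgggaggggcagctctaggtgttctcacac
Slc4a4 (chr5:88887010-88887259): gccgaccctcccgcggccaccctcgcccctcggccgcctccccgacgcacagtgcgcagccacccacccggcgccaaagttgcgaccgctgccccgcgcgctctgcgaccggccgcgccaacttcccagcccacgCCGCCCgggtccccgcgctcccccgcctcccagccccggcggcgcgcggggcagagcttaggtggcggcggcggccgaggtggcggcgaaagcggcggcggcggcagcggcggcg
Slc4a7 (chr14:14718534-14718783): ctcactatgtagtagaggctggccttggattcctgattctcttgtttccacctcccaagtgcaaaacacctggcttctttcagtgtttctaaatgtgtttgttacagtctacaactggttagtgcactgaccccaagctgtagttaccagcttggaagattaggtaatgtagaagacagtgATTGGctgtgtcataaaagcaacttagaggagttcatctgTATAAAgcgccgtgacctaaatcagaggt

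The window of Slc4a2 held none of the 5 motifs and had a GC content of 69.2%. Slc4a10 had a TATAAA match on the opposite strand and a GC content of 47.6%. Slc4a5 held the same match on the opposite strand and a GGGCGG on the same strand. The Slc4a4 window had the highest GC content of the 5, at 82%, above 99.3% of all 32851 windows, and held a GC box on the opposite strand. Slc4a7 held a TATAAA on the same strand, 29 bases before the start, and a CCAAT box on the opposite strand. Of all windows of this length, 6.25% held the OTX motif, 32.7% the GC box, 33.8% the CCAAT box, 12.4% the TATA box and 17.8% the core of the cAMP response element. The matches are descriptions of the letters, and the windows of Slc4a2 and Slc4a10 shared none of the 5 motifs.

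On the array, Slc4a10 and Slc4a2 were higher in CPE than in the reference, and Slc4a4 and Slc4a7 were lower. A probe entered the test if the scanner software marked the CPE spot, or the reference spot, as well above background in all 3 mice, and was called when the limma adjusted p was under 0.05 and the ratio at least 2-fold. Of the 17 named probes 15 were tested, 3 were called higher in CPE and 4 lower. Over all 25838 probes tested, 7.09% were called higher and 10.2% lower. Among the Slc4 calls, Slc4a10 probe 1 and Slc4a4 probe 2 entered the test through their brighter channel alone. With only probes above background in both channels, 2 named probes were called higher and 3 lower, beside 3645 of all 17944 probes called in either direction. Taking the brightest probe of each gene, 2 of the 9 named members were higher and 2 lower, beside 9.15% and 11.2% of 14770 genes. The median log2 ratio of the 15 tested probes was -0.06, and that of all probes tested was -0.04. In bulk RNA, fewer cells of a type and less RNA per cell cannot be told apart.

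**Figure D1:**
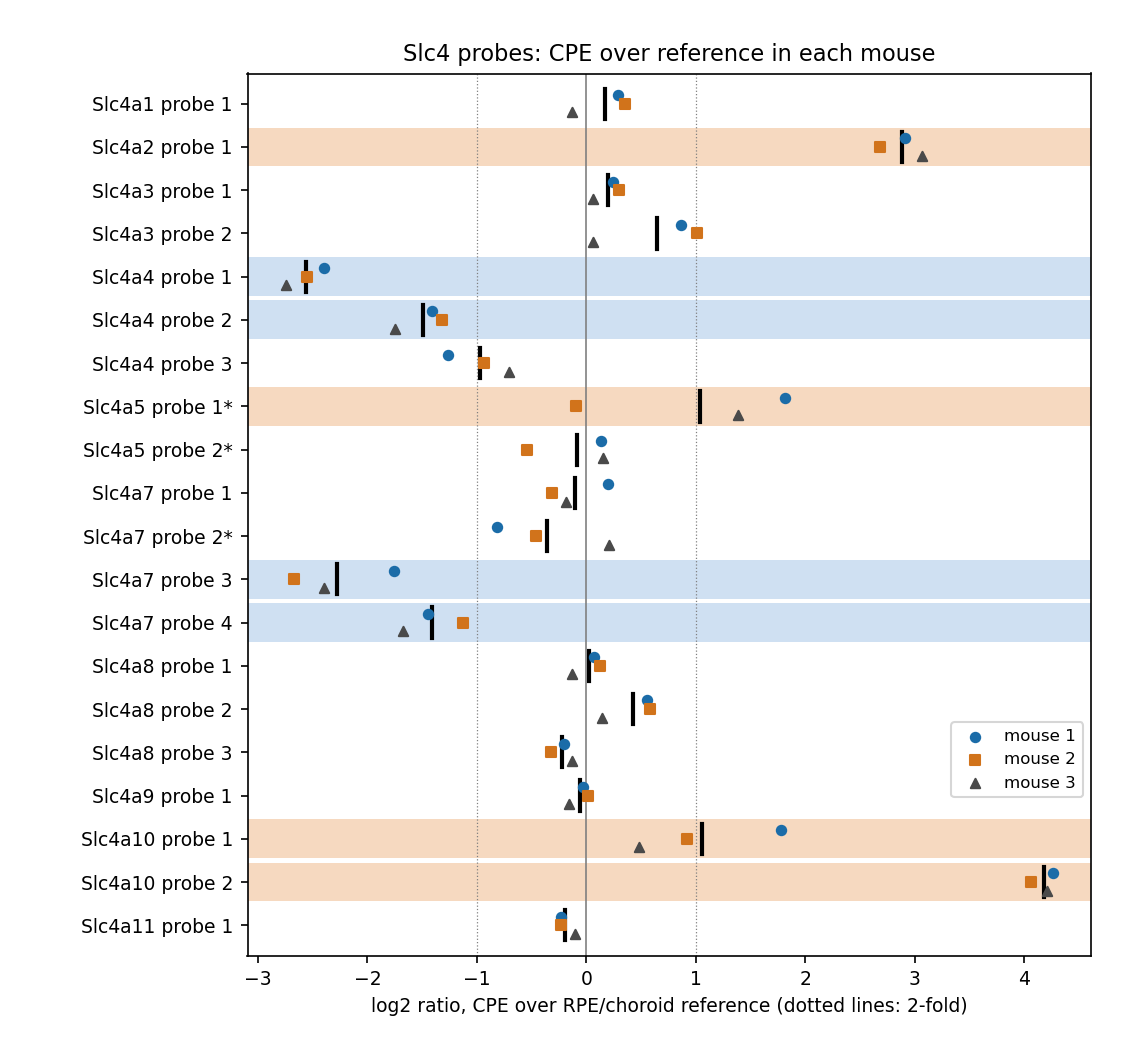
Log2 ratio of CPE over the RPE/choroid reference (x axis) for each Slc4 probe (y axis) in mouse 1, 2 and 3 (points), with the mean over the 3 mice as a black bar; shaded rows are probes called higher (orange) or lower (blue) in CPE, and an asterisk marks the 3 probes matched by a former symbol or a description. Slc4a10 probe 2 lies furthest to the right, at 4.07 to 4.26, and Slc4a4 probe 1 furthest to the left, at -2.74 to -2.39.

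Signal levels were ranked over all probes after normalization between arrays, and the class of a probe was high over the 90th percentile, moderate between this and the 50th, low between the 50th and the 10th, and otherwise very low. Among the 17 named probes 2 were in the high class in CPE, 8 moderate, 5 low and 2 very low. Hybridisation strength varies from probe to probe, so a percentile places a probe on the array and does not rank transcripts against each other. The CPE signal of 10 of the 17 was well above background in every mouse.

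**Figure D2:**
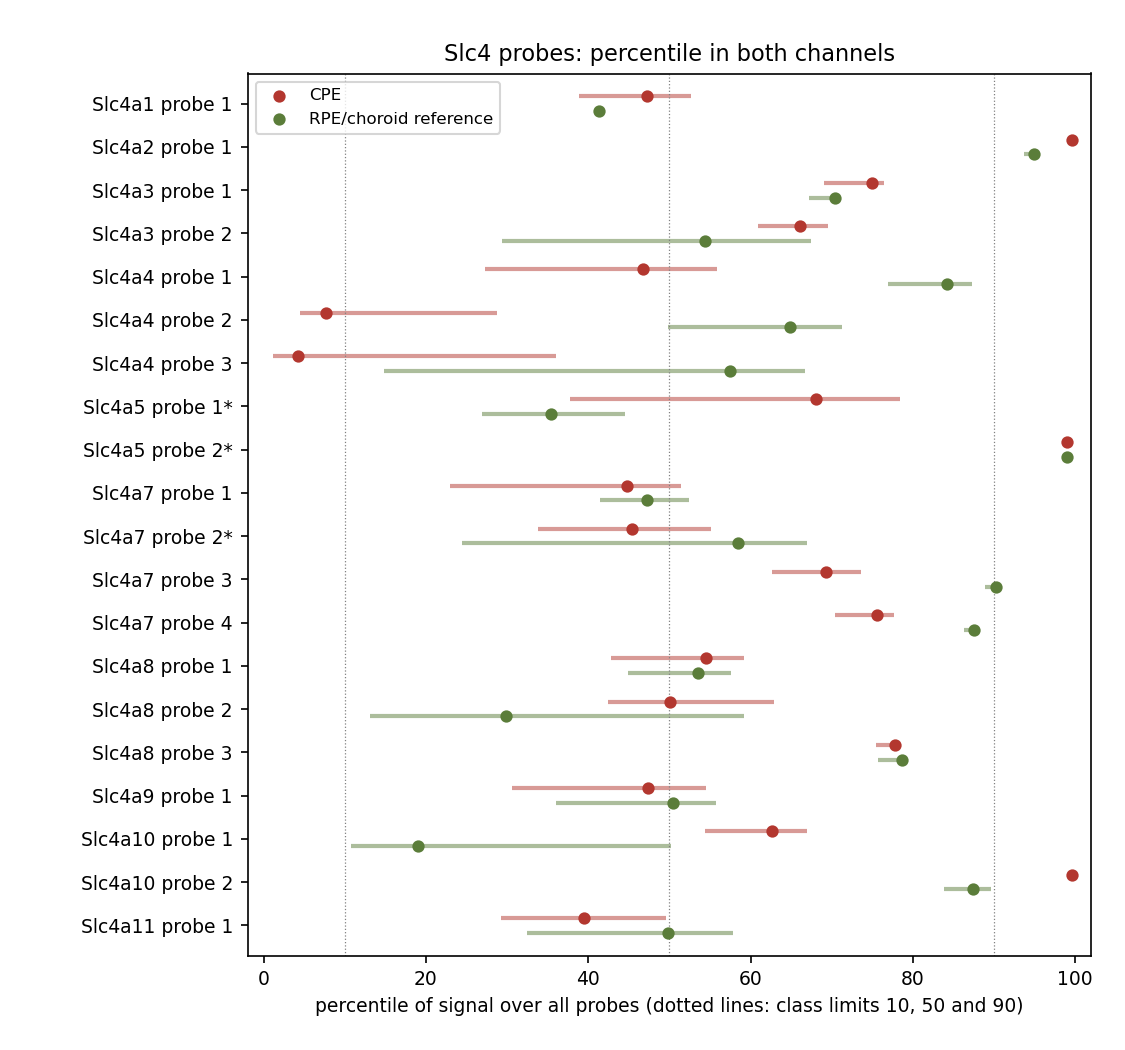
Percentile of the signal over all probes (x axis) for each Slc4 probe (y axis) in CPE (red) and in the RPE/choroid reference (green); points are the percentile of the mean over 3 arrays and lines run from the lowest to the highest array. Slc4a2 and Slc4a10 probe 2 lie above the 99th percentile in CPE in all 3 mice, and the lines of dim probes such as Slc4a4 probe 3 are long.

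The arrays differed in how many probes stood above background. In CPE these were 24078, 18932 and 35233 probes in mice 1, 2 and 3, and of the 17 named Slc4 probes 15, 10 and 15. The mark of well above background was not a like measure across arrays. For Slc4a9 it was given in mouse 3 at a CPE signal of 519 and a percentile of 30.6. In mouse 2 it was not given at a signal of 112 and a percentile of 54.5. All 14 CPE markers, among them Ttr and Kcne2, were higher in CPE than in the reference. Of 12 RPE and melanocyte markers 10 were lower and Stra6 was higher, and all 9 photoreceptor markers on the array were lower. In CPE, 11 of the 12 and 8 of the 9 still stood well above background in every mouse. The median CPE percentiles of these lists were 77.2 and 83.3. Only the CPE signals of Tyr and Pde6a never stood well above background. By limma none of 8 neuron markers was higher (none at an unadjusted p under 0.05 either), and 4 were lower. Of the endothelial, stromal and macrophage markers none was called higher (2, 1 and 1 at an unadjusted p under 0.05), and 1 of 7, 5 of 6 and 5 of 6 were lower. All 3 ependyma markers were higher in CPE, at log2 ratios from 2.71 to 4.42. Red cell and astrocyte markers are given with the members below.

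The chloride-bicarbonate exchangers Slc4a1, Slc4a2 and Slc4a3 behaved differently from each other. Slc4a2 (probe A_51_P172542, mm8 chr5:23950769-23950828) gave CPE signals of 40745, 30248 and 22672 in mice 1, 2 and 3, against reference signals of 2252, 2617 and 1562. These are mean spot signals before normalization, so their quotient is not the ratio given next. The percentile in CPE was 99.7, 99.7 and 99.5. The 3 CPE signals lay far above the 3 reference signals, without overlap. The normalized log2 ratios were 2.91, 2.68 and 3.07, a mean of 2.89 ± 0.20 (SD, n = 3), or 7.40-fold higher in CPE (limma adjusted p = 2.00e-05). Of 14760 genes outside the family 86 had a higher ratio. The size depended on the scaling, since centring each array on its median in place of loess gave 3.74.

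Slc4a1, the anion exchanger of red cells known as band 3, stood at the 47th percentile of the CPE signals, in the low class. Its log2 ratios were 0.29, 0.35 and -0.13, and its CPE signal in mouse 2 was not well above background. The mean of 0.17 (95% interval -0.22 to 0.56) did not pass the test (limma adjusted p = 0.455). Of 7 red cell markers on the array none was higher in CPE by limma, at an unadjusted p under 0.05 or after adjustment, and 3 were lower. The globin genes Hba-a1 and Hbb-bt stood at percentiles of 99.3 and 99.0 in CPE, whereas the red cell membrane genes Epb42 and Rhag were well above background in 1 CPE sample each.

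Slc4a3 (AE3), an exchanger of excitable tissues, had 2 probes 3921 bases apart and was of moderate level with both. Probe 1 gave log2 ratios of 0.25, 0.30 and 0.06, and probe 2 gave 0.87, 1.01 and 0.06. Mouse 3 was the lowest with both probes. Probe 2 had a mean of 0.65 ± 0.51 (SD, n = 3) and a limma adjusted p of 0.0451, below the 2-fold minimum, so it was not called. Probe 1 had a mean of 0.20 (95% interval -0.15 to 0.56, limma adjusted p = 0.333).

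Of the electrogenic sodium-bicarbonate cotransporters, Slc4a4 was lower in CPE and Slc4a5 was bright in both tissues. Slc4a4 (NBCe1) is the main cotransporter of the kidney proximal tubule and is also known from the RPE. Its brightest probe (probe 1, mm8 chr5:90272212-90272271) gave CPE signals of 212, 118 and 433, against 738, 739 and 871 in the reference. In each mouse the CPE signal was the lower of the pair. The log2 ratios were -2.39, -2.55 and -2.74, a mean of -2.56 ± 0.18 (SD, n = 3), or 5.91-fold lower in CPE (limma adjusted p = 3.15e-05). Of 14760 genes outside the family 278 had a lower ratio. In CPE this probe was in the low class, at a percentile of 46.7, with 55.8, 52.5 and 27.3 in mice 1, 2 and 3. The size of its ratio depended on how background was handled. It was -2.21 without background correction and -3.80 with the processed signals of the scanner software.

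The other probes of Slc4a4 lie downstream, the last of them 41926 bases away. The CPE signal of both stayed short of well above background in all mice, so a fold can only be a bound. For probe 2 the log2 ratios were -1.41, -1.32 and -1.75, and the reference was at least 2.74-fold higher (limma adjusted p = 0.000416). For probe 3 they were -1.27 and -0.94 in mice 1 and 2. In mouse 3 neither channel of probe 3 was well above background, so the probe was not tested and no fold is given for it. Probes 1 and 2 were lower in CPE in every mouse. Among 4 astrocyte markers, Aqp4 was lower in CPE, with a log2 ratio of -1.28 (limma adjusted p = 0.00163), and Aldh1l1 was higher, at 1.01 (limma adjusted p = 0.00208). The part of such cells in the Slc4a4 ratio was not tested.

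Slc4a5 was measured with the 2 probes under the former symbol. Probe 2 (A_51_P403814, mm8 chr6:83269328-83269387) gave CPE signals of 21650, 10875 and 13285 and reference signals of 7912, 8624 and 6474. Its percentile was 99.0 in CPE and 99.0 in the reference. The normalized log2 ratios were 0.14, -0.54 and 0.15, and mouse 2 was the only animal below 0. The mean of -0.09 (95% interval -0.53 to 0.36) did not pass the test (limma adjusted p = 0.754). Median centring, which treats bright spots differently from loess, gave 0.78 (limma adjusted p = 0.11, and from 0.11 to 1 over all alternatives), so no direction is given for this probe.

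Probe 1 of Slc4a5, 23585 bases upstream, was dimmer. It gave CPE signals of 714, 90 and 1114, and the signal of mouse 2 was not well above background. The log2 ratios were 1.81, -0.09 and 1.39, so mouse 2 stood apart from the other mice. The mean of 1.04 ± 1.00 (SD, n = 3) passed the threshold narrowly (limma adjusted p = 0.0411). The call was lost without mouse 1 (0.65, adjusted p = 0.215) and without mouse 3 (0.86, adjusted p = 0.169), while without mouse 2 the value was 1.60. It was also lost without background correction (adjusted p = 0.0845), with median centring (0.0756), with the processed signals (0.299), with no filter on dim probes (0.0714) and against 2-fold with treat. Over all alternatives its adjusted p ran from 0.000119 to 1. The probes of Slc4a5 therefore gave different ratios, and the mean difference between them was 1.12 ± 0.62 (SD, n = 3).

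Among the electroneutral sodium-coupled members, Slc4a10 was higher in CPE, Slc4a7 was lower with 2 of its probes, and Slc4a8 showed no called difference. Slc4a10 probe 2 (A_51_P159863, mm8 chr2:62127113-62127172) gave CPE signals of 33539, 27847 and 28741, against 787, 1011 and 966 in the reference. These values were far apart in each mouse and varied little among mice. The percentile in CPE was 99.5, 99.7 and 99.7. The log2 ratios were 4.26, 4.07 and 4.21, a mean of 4.18 ± 0.10 (SD, n = 3), or 18.1-fold higher in CPE (limma adjusted p = 6.50e-06). Of 14760 genes outside the family 12 had a higher ratio. Median centring gave 4.98.

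Slc4a10 probe 1 lies 58145 bases upstream and spans 625 bases of the genome (mm8 chr2:62068403-62069027), more than the length of a probe. Its CPE signals were 297, 116 and 882, and its reference signals 113, 108 and 362. The reference was well above background in mouse 3 only. The log2 ratios were 1.78, 0.92 and 0.48, with a mean of 1.06 ± 0.66 (SD, n = 3) and a limma adjusted p of 0.0119. The call was lost without mouse 1 (0.70, adjusted p = 0.0771) and without background correction (0.89), and over all alternatives the adjusted p ran from 0.00198 to 1. Both probes were higher in CPE in all 3 mice, but the log2 ratio of the upstream probe minus that of the last was -2.48, -3.15 and -3.72. Slc4a10 is also expressed by neurons. The 8 neuron markers had log2 ratios from -4.71 (Nefl) to 0.14 (Tubb3), of which 4 were called lower and none higher, and their part in the Slc4a10 ratio was not tested.

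Slc4a7 (NBCn1), a widely expressed sodium-bicarbonate cotransporter, had its strongest difference at probe 3 (A_51_P279997). Its CPE signals were 626, 178 and 649, and its reference signals 1182, 1062 and 1289. The CPE signal was below the reference signal in each mouse, and lowest in mouse 2. The log2 ratios were -1.76, -2.67 and -2.40, a mean of -2.28 ± 0.47 (SD, n = 3), or 4.84-fold lower in CPE (limma adjusted p = 0.00016). The brightest probe, probe 4 at the 3′ end (mm8 chr14:13593053-13593112), gave -1.44, -1.13 and -1.67, a mean of -1.41 ± 0.28 (SD, n = 3), or 2.66-fold lower (limma adjusted p = 0.000636). This call did not hold with median centring, where the value was -0.90 (adjusted p = 0.0588, in a range from 0.00012 to 0.258 over all alternatives).

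Probes 1 and 2 of Slc4a7 were dim, in the low class in CPE, and showed no called difference. Probe 1, the most upstream of the 4, gave 0.20, -0.31 and -0.19, a mean of -0.10 (95% interval -0.49 to 0.29, limma adjusted p = 0.675). Probe 2, matched by its description, gave -0.82, -0.46 and 0.21, a mean of -0.35 (95% interval -0.85 to 0.14, limma adjusted p = 0.23). Neither was well above background in the CPE of mouse 2, so these intervals set no firm limit. The ratios of probe 1 were above those of probe 4 in all 3 mice, by 1.64, 0.81 and 1.49.

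Slc4a8 (NDCBE), a sodium-driven chloride-bicarbonate exchanger known from neurons, was of moderate mean level in CPE with all 3 probes. Probe 2 was only just moderate, at a percentile of 50.05, with 42.5, 42.5 and 62.9 in mice 1, 2 and 3. Its class rested on mouse 3, without which the percentile was 42.5. Probe 3, the brightest, gave log2 ratios of -0.20, -0.32 and -0.13, a mean of -0.22 (95% interval -0.57 to 0.13, limma adjusted p = 0.289). Probe 1 gave 0.07, 0.12 and -0.13, a mean of 0.02 (95% interval -0.33 to 0.38, limma adjusted p = 0.925). Probe 2, well above background in neither channel of mouse 2, gave 0.55, 0.59 and 0.15 and was not tested. None of the 3 probes reached a 2-fold ratio in any mouse.

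Slc4a9 (AE4), known from kidney, and Slc4a11, a membrane transporter of corneal endothelium that is not a classical bicarbonate carrier, were in the low class in CPE. Slc4a9 gave log2 ratios of -0.03, 0.01 and -0.16, a mean of -0.06 (95% interval -0.41 to 0.29, limma adjusted p = 0.783). Slc4a11 gave -0.23, -0.23 and -0.10, a mean of -0.19 (95% interval -0.54 to 0.16, limma adjusted p = 0.354). For both genes the CPE signal of mouse 2 was not well above background. With signals this close to background the intervals set no firm limit, and the processed signals of the scanner software gave -0.56 for Slc4a11.

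Ordered by the ratio of the brightest probe, the members ran from Slc4a10 and Slc4a2 through Slc4a3, Slc4a1, Slc4a9, Slc4a5, Slc4a11 and Slc4a8 to Slc4a7 and Slc4a4. The ranges over the 3 mice of Slc4a10 (4.07 to 4.26) and Slc4a2 (2.68 to 3.07) did not overlap, nor did those of Slc4a2 and Slc4a3. From Slc4a3 to Slc4a8 each gene overlapped the next. Slc4a8, Slc4a7 (-1.67 to -1.13) and Slc4a4 (-2.74 to -2.39) were again separate. This order is that of the brightest probes and changes with other probes of the same genes. Slc4a7 probe 3 (-2.67 to -1.76) overlapped Slc4a4 probe 1, and Slc4a10 probe 1 (0.48 to 1.78) lay below Slc4a2.

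Probes of a gene at different positions did not give the same ratio. In Slc4a10 the last probe had the higher ratio in all mice, and in Slc4a5 and Slc4a7 probe 1 exceeded the last probe. In each of these genes probe 1 fell short of well above background in a channel of at least 1 mouse. The part of dim signal in these gaps was not tested. The log2 CPE level of probe 1 minus that of the last probe was -6.19, -7.34 and -6.26 for Slc4a10 and -4.56, -6.29 and -4.84 for Slc4a5, with mouse 2 lowest in both. Levels of different probes are not comparable, and only the order of the mice is read from these values. Over 4260 other genes with probes 1000 to 200000 bases apart, the median ratio of the upstream probe minus the last was 0.08, -0.22 and 0.09 in mice 1, 2 and 3. The median CPE level difference was -1.04, -1.34 and -0.69. Mouse 2 thus had lower CPE signal at upstream probes across the array, and the part of this in the Slc4 values was not tested.

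**Figure D3:**
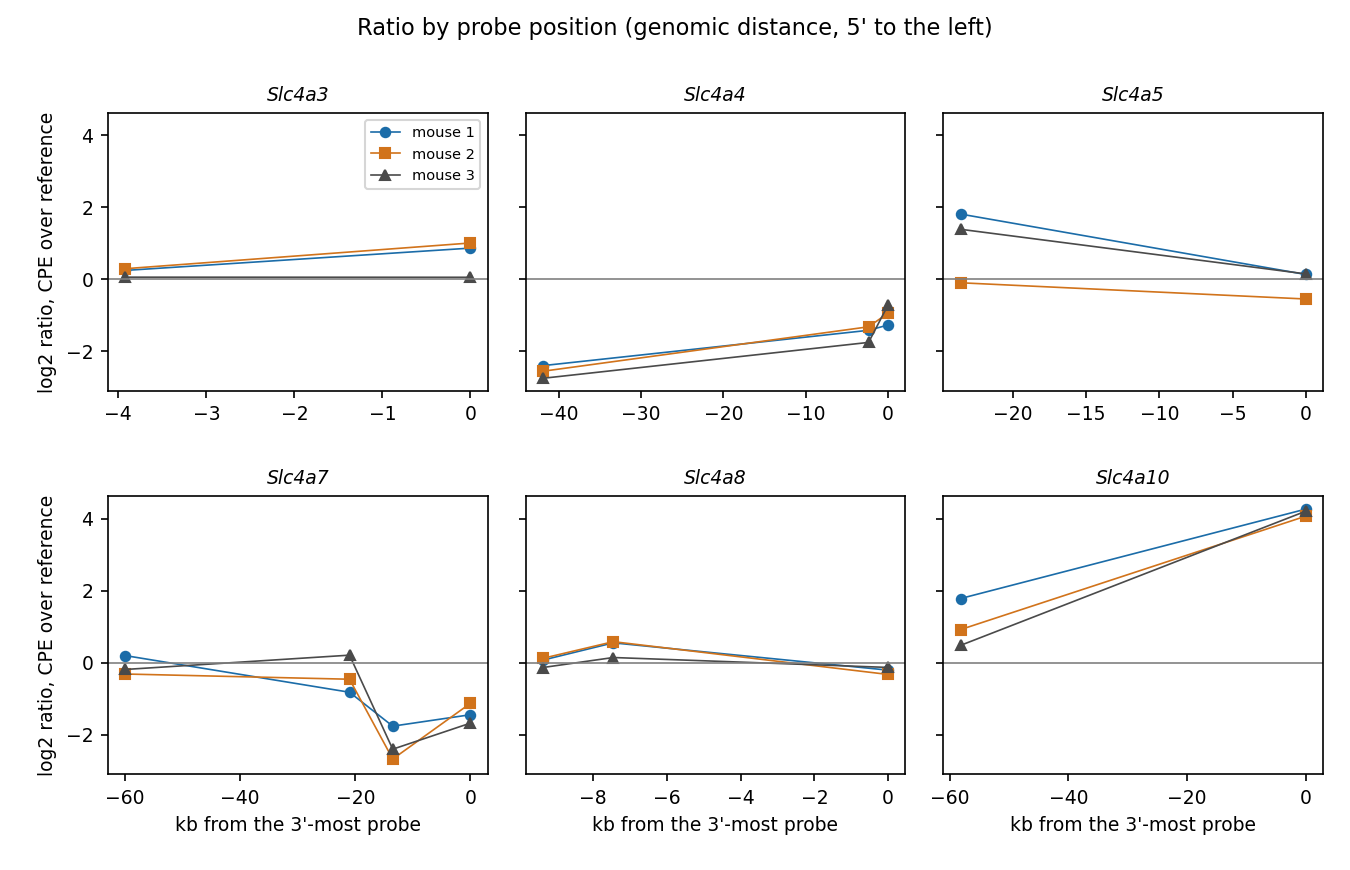
Log2 ratio of CPE over reference (y axis) against the genomic distance in kb from the 3′-most probe (x axis, 5′ to the left) for the 6 members with more than 1 probe; lines join the probes of each mouse. Slc4a10 rises from between 0.48 and 1.78 to between 4.07 and 4.26, while Slc4a8 stays within 0.59 of 0 in all mice.

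The acid-base partners of the family include carbonic anhydrases, which supply bicarbonate, the anion exchangers of the Slc26 family, the sodium-proton exchangers of the Slc9 family, the sodium pump and fluid transport proteins, regulators of these transporters, and ankyrins and red cell membrane proteins. Of 57 genes listed 56 were on the array and 45 were tested by their brightest probe. In CPE 11 were higher and 8 lower, beside 9.15% and 11.2% of all genes. Their median log2 ratio was 0.14, and that of all genes tested was -0.01.

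Among the largest ratios in favour of CPE were those of genes of fluid secretion and its control. Ahcyl2, a relative of the bicarbonate transport regulator Ahcyl1, had a log2 ratio of 2.42 ± 0.42 (SD, n = 3). The cotransporter Slc12a2 (NKCC1) had 2.35 ± 0.32, and the sodium pump subunit Atp1b1 had 2.27 ± 0.51. Stk39 (SPAK), a kinase that acts on Slc12a2, had 2.12 ± 0.45. Ahcyl1 (IRBIT) itself was at 0.14 (limma adjusted p = 0.568), with percentiles of 97.5 in CPE and 97.2 in the reference. Of the 6 pumps and fluid transport genes 5 were higher in CPE and none lower, and of 8 regulators tested 2 were higher and none lower (none and 1 lower at an unadjusted p under 0.05).

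Carbonic anhydrases went both ways, with 4 of 14 tested higher and 3 lower. The cytosolic Car2 had a log2 ratio of 1.71 ± 0.15 and the membrane-bound Car4 and Car12 had 1.43 ± 0.31 and 1.29 ± 0.57 (SD, n = 3). Car14 had -0.76, under the 2-fold minimum (limma adjusted p = 0.00793), and stood at percentiles of 97.6 in CPE and 98.7 in the reference. The muscle enzyme Car3 was lower in CPE, at -3.85 ± 0.30, as was the secreted Car6, at -2.43 ± 0.20.

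Among other transporters, Slc26a4 (pendrin) had the lowest ratio of the list, at -3.96 ± 0.35 (SD, n = 3). Of 8 Slc26 genes tested none was called higher by limma (3 at an unadjusted p under 0.05) and 2 were called lower. None of 5 Slc9 genes tested was called by limma, with 1 higher and 2 lower at an unadjusted p under 0.05. Slc9a7 had a ratio of -0.67, short of 2-fold (limma adjusted p = 0.0107). The median log2 ratio of the 5 was -0.11. Ankyrins link Slc4a1 and other anion exchangers to the cytoskeleton, and Ank2 was lower in CPE, at -2.23 ± 0.65, as was the membrane skeleton gene Epb41, at -2.53 ± 0.28, and in all 3 of 4 tested genes of this group were lower. Epb42, which binds band 3 in red cells, was not tested because it was well above background in 1 CPE sample and 1 reference channel.

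**Figure D4:**
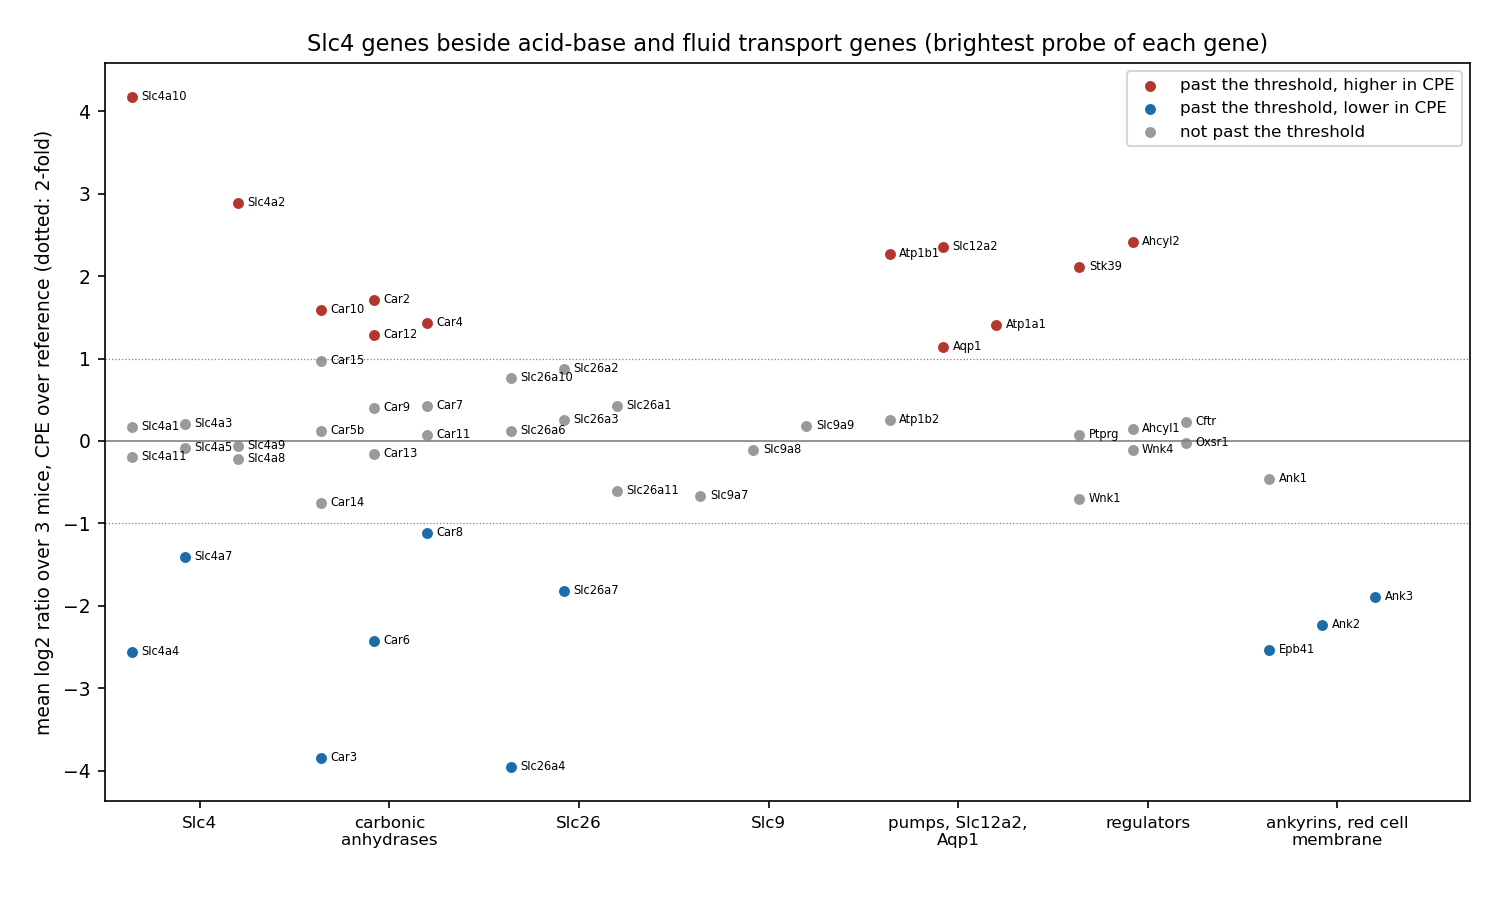
Mean log2 ratio of CPE over reference over 3 mice (y axis) for the brightest tested probe of each Slc4 gene and of each acid-base or fluid transport gene, by group (x axis, points spread sideways for legibility, some partner genes left out); red is called higher in CPE, blue called lower and grey not called. Slc4a10 lies above every partner gene shown, while Slc26a4 and Car3 lie below Slc4a4.

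The genes with ratios most like those of a member were found by the smallest root mean square difference over the 3 log2 ratios, among 14769 genes. For Slc4a10 they were Igfbp2 (0.14), Kcne2 (0.17) and Cyb561 (0.25). For Slc4a2 they included Maob (0.23) and Slco1c1 (0.24). For Slc4a7 they were Bves (0.03), Tram1l1 (0.04) and Ccn4 (0.05), and for Slc4a4 Vopp1 (0.09), Nectin3 (0.13) and Elovl5 (0.16). With 3 arrays this likeness is a description.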

How the data were processed

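Per the labels and file headers, CPE (Cy5) and RPE/choroid reference (Cy3) RNA were hybridised to 3 whole mouse genome arrays, 1 per mouse, and read with Agilent Feature Extraction 9.5.3.1. The authors deposited scanner files with the mean and background intensity of each spot, processed intensities and a log10 ratio, and a table of log2 values processed in R 2.14.0 and limma, whose scale and direction are not stated in it. The log10 ratio column was not used further. The deposited log2 values correlated with the CPE channel on each array (Spearman 0.998 to 0.999 across probes) and served as an alternative chosen after seeing the data. Medians of the 3 deposited columns were 6.86, 6.82 and 6.85.

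Here, levels were log2 mean signals after Aquantile normalization. Ratios were computed after normexp background correction (offset 50) and loess within each array in R 4.3.3 with limma 3.58.1, leaving out control spots and outlier spots. Spots of a probe were averaged. Each ratio was tested against 0 with lmFit and eBayes, with Benjamini-Hochberg adjustment over all 25838 probes tested. With 3 arrays, their number limits the precision. The fit was tested on simulated data. Of 41174 probes, 23374 were named by accession, 6733 by symbol and 2919 by a former symbol through the RefSeq gene table, and 8148 stayed unnamed. Probe positions are those of the array design on mm8, and promoter positions are on GRCm38.p6. The gene parts that the probes hit were not analysed here, nor were human samples.

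The members, gene lists and tests were chosen with earlier results of these data known. All members were named with every probe. A gene's brightest probe had the highest mean signal over both channels. Of the partner list the 5 largest called ratios in each direction and 9 fixed genes were named, and for 4 members the 3 genes most like them, except that some of these are not reported here. Alternatives covered background correction, normalization, filters, array weights, a test against 2-fold, ranking and each mouse left out.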

Additional observations from a re-analysis of the deposited data

How the results depend on the processing

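No probe of a member changed direction while called, and Slc4a10 probe 2, Slc4a2, Slc4a4 probe 1 and Slc4a7 probe 3 were called under each of the 10 alternatives, with largest adjusted p-values of 0.00189, 0.00241, 0.00445 and 0.00635. Of 172 ratios recomputed for single probes, 159 stayed on the same side of the threshold and 13 lost the call. These belonged to Slc4a5 probe 1, Slc4a10 probe 1, Slc4a7 probe 4 and Slc4a4 probe 2. The named probes lower in CPE numbered 4, and 3 with median centring, 3 with only probes above background in both channels, and 2 with limma's test against 2-fold (treat), which by its construction asks for more than a difference from 0. Those higher numbered 3, and 2 without background correction, with only probes above background in both channels, and with treat. Over all probes that test called 1413, the processed signals 6731 and the reported fit 4462. Median centring moved the median log2 ratio of all probes by 0.13 and the share of called probes that were higher in CPE from 41.1% to 67.0%. The number of Slc4 probes in the high class was 2 under each other ranking, among them that of the deposited log2 levels, and 3 with the 3 further probes, both chosen after seeing the data. Ranking only probes above background, or 1 value per gene, lowered most percentiles, as fewer dim probes were ranked, and Slc4a3 probe 1 then stood at 44.2 and 60.6. With only probes above background ranked, Slc4a4 probe 1 stood at 1.79, Slc4a8 probe 1 at 7.40 and Slc4a10 probe 1 at 18.7. Of the named moderate probes, only Slc4a8 probe 3 then kept its class, at 50.6. Leaving out each mouse in turn gave 2 to 3 probes higher and 4 lower. Each ratio sets CPE against the reference of the same array, so the test used the pairing of channels within arrays. No pairing of mice between groups was possible, because the 3 mice form a single group. Dim probes limit what can be said of Slc4a1, Slc4a9 and Slc4a11. The same holds for Slc4a4 probes 2 and 3, Slc4a5 probe 1, Slc4a7 probes 1 and 2, Slc4a8 probe 2 and Slc4a10 probe 1. For Slc4a4 probe 1, dim CPE signal limits the size of the ratio.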
